A study of Homo sapiens with 28 samples.

Results

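The BEX (brain expressed X-linked) family comprises 5 human genes, BEX1, BEX2, BEX3, BEX4 and BEX5, and all 5 were measured among the 18417 genes of the arrays. The family was selected on measured values: BEX1 was higher in all 8 tested knockdowns than in the control, and the question was whether its paralogs followed. The values of BEX1 against the control are therefore given as a description with no test, whereas BEX2 to BEX5 were tested against the control, and all 5 genes were compared between knockdowns without it.

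HEK293 cells, an AIRE-negative line from human embryonic kidney, were profiled on 28 Affymetrix microarrays (HuGene ST1.0) after lentiviral infection with a short hairpin RNA (shRNA) driven by the U6 promoter and 6 days of selection in 2 µg/ml puromycin. In the first series, CLP1, DDX5, DDX17 and HNRNPL were each knocked down (KD) by 3 hairpins with 1 array per hairpin, CPSF6 by 1, and 1 control (Ctr) array carried a hairpin against the bacterial lacZ gene. In the second series, PABPC1, PARP1, PRKDC and SUPT16H had 3 hairpins each, set against 2 lacZ arrays. All groups, the controls included, were infected and selected alike, the hairpins of each target were those that the study found most effective, and its list holds a single lacZ hairpin.

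BEX genes encode small, largely unfolded proteins that are abundant in neurons and act as adaptors of signaling and transcription complexes. They lie on the long arm of the X chromosome, interspersed with the related TCEAL genes and next to the ARMCX and GPRASP genes, and are thought to have arisen in mammals together with them. Several BEX proteins bind the p75 neurotrophin receptor or its partners and modulate cell cycle exit, survival and death.

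The 5 genes were read by 1 probeset each: BEX1 (Entrez 55859) by 8174201, BEX2 (84707) by 8174239, BEX3 (27018) by 8169028, BEX4 (56271) by 8169009 and BEX5 (340542) by 8174141. In RefSeq coordinates of GRCh38, on chromosome X, BEX1 lies at 103062651–103064171, BEX4 at 103215092–103217246, BEX2 at 103309346–103310990 and BEX3 at 103376323–103378164, so that they fit in 316 kb. BEX5 stands 907 kb away from BEX1, at 102153712–102155977. BEX1, BEX2 and BEX5 are on the minus strand and BEX3 and BEX4 on the plus strand. The sequences of single probes were not used here, and signal that paralogs share by cross-hybridization cannot be told apart from signal of their own.

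As the members were examined for moving together, their start regions were compared. RefSeq promoter windows of 300 bases, of which 250 lie before a gene start and 50 after it, were found for all 5 genes. At the best matching windows, those of BEX2 and BEX4 were identical at 257 of 305 alignment columns (84.3%) and those of BEX1 and BEX3 at 240 of 325 (73.8%), against 52.1% to 53.6% for the other pairs. The E-box CACGTG, a palindrome bound by basic helix-loop-helix proteins in many promoters, was present in 4 of the 5 genes. It was chosen after the windows had been viewed, and is set in capitals below in 30 bases of each gene, 5′ to 3′ on the gene's strand (GRCh38.p14). For BEX5, which has no CACGTG, the capitals mark ACGTGA, which overlaps the E-box of the others by 5 letters and is shared by all 5.
BEX1: cgcacggccctCACGTGaccgggagctgca
BEX3: cgcgcggccctCACGTGacccagagctgca
BEX2: gacaacagccaCACGTGatcggccaacact
BEX4: gacaacagcccCACGTGaccggccaacact
BEX5: gagctcacagtgACGTGAcccttaggagac
The stretches lie at chrX:103064200-103064229 for BEX1, chrX:103376480-103376509 for BEX3, chrX:103310991-103311020 for BEX2, chrX:103215078-103215107 for BEX4 and chrX:102156011-102156040 for BEX5. The motif begins 47 bases before an annotated start in both BEX1 and BEX3, 19 bases before it in BEX2, 3 bases before it in BEX4 and 51 bases before it in BEX5. For BEX3, which has 3 windows, this is a later start. Its stretch lies inside the gene coordinates given above and not before them. Read on both strands, CACGTG was found in 8.77% of 27305 genes with such windows (7.25% of windows), and ACGTGA in 8.64% of genes (7.21% of windows). CACGTG was also present in 7 of 8 TCEAL genes and in 5 of 8 ARMCX and GPRASP genes with a window. These matches describe letters only, and binding was not measured.

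Several facts of the series bear on every value below. Each of the 8 targets was lower than lacZ in 3 of 3 hairpins, with differences of -0.57 to -2.26 on the log2 scale, and 5 of the 8 passed the test. Those that did not were targets of the first series, CLP1 (-0.57, adjusted p of limma = 0.187), DDX5 (-1.04, 0.0869) and HNRNPL (-0.93, 0.129). The lacZ array of the first series and lacZ replicate 2 of the second differed with an SD over genes of 0.06, against 0.16 to 0.76 between hairpins of one target. They were therefore taken as 1 sample normalized in each series, which the labels do not state. It enters each comparison with lacZ once, as the only control of the first series and as 1 of 2 in the second, so that the comparisons are not independent of each other. Whether the lacZ arrays stem from separate infections is not stated in the labels, so that their spread may be technical. The spread behind the p-values was pooled over all groups and came mainly from differences between hairpins of the same target, taken as replicates. The lacZ arrays of the second series added little to it and the single lacZ array of the first series nothing. The 2 lacZ arrays of the second series differed for some members: replicate 3 minus replicate 2 was 0.62 for BEX1, 0.52 for BEX3 and 0.40 for BEX4, but 0.07 for BEX2 and 0.06 for BEX5. Median intensities of arrays were 61.5 to 74.0 for the first series and 54.5 to 58.3 for the second, and levels are compared only within a series. Of 5 markers of HEK293 cells, 4 lay above the median gene. The summed intensity of 12 measured neuron markers was 1600 to 3124 in the KD arrays of the first series, against 3750 in lacZ, and 858 to 1854 in those of the second, against 2994 and 3199 in lacZ. The light neurofilament NEFL made up 59.5% to 83.9% of this sum in KD arrays and 87.8% to 88.6% in lacZ arrays. The other 11 markers summed to 436 to 549 in KD arrays of the first series, against 458 in lacZ, and to 343 to 523 in those of the second, against 360 and 366 in lacZ. The part of NEFL in the results was not tested.

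BEX1, which in rat cells binds the p75 neurotrophin receptor and links it to the cell cycle, read 8.81, 8.87 and 8.86 (log2 intensity) in the 3 CLP1 KD arrays, 9.17, 8.94 and 9.40 in DDX5 KD, 9.54, 10.29 and 9.94 in DDX17 KD and 9.79, 9.64 and 9.62 in HNRNPL KD, against 7.23 in lacZ. In the second series it read 9.16, 9.07 and 8.80 in PABPC1 KD, 9.00, 9.09 and 9.26 in PARP1 KD, 8.65, 8.79 and 9.81 in PRKDC KD and 8.74, 8.53 and 8.97 in SUPT16H KD, against 6.98 and 7.59 in lacZ. In bulk RNA, more cells that express a gene and more RNA per cell cannot be told apart. No KD array reached down to lacZ, and the smallest gap between a KD array and the highest lacZ array of its series was 1.58 in the first series and 0.94 in the second. As a description, the mean of the 4 knockdowns exceeded lacZ by 2.17 ± 0.30 (SE of limma, 4.50-fold) in the first series and by 1.70 ± 0.22 (3.26-fold) in the second. The size of the second value depended on the control: it was 1.39 without lacZ replicate 2 and 2.01 without lacZ replicate 3.

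Within the first series the order of BEX1 was DDX17 KD (9.92 ± 0.37, SD, n = 3), HNRNPL KD (9.68 ± 0.09), DDX5 KD (9.17 ± 0.23) and CLP1 KD (8.84 ± 0.03). DDX17 and HNRNPL overlapped, whereas HNRNPL stood wholly above DDX5 and DDX5 wholly above CLP1. This order is a description, as the share of all genes whose groups of 3 arrays separate in this way was not determined. Set against the other knockdowns in limma, neither HNRNPL (0.37 ± 0.19, adjusted p = 0.615) nor DDX5 (-0.31 ± 0.19, 0.535) passed. In the second series PARP1 KD (9.12 ± 0.13), PRKDC KD (9.08 ± 0.64), PABPC1 KD (9.01 ± 0.19) and SUPT16H KD (8.74 ± 0.22) each overlapped their neighbor in the order.

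**Figure D1:**
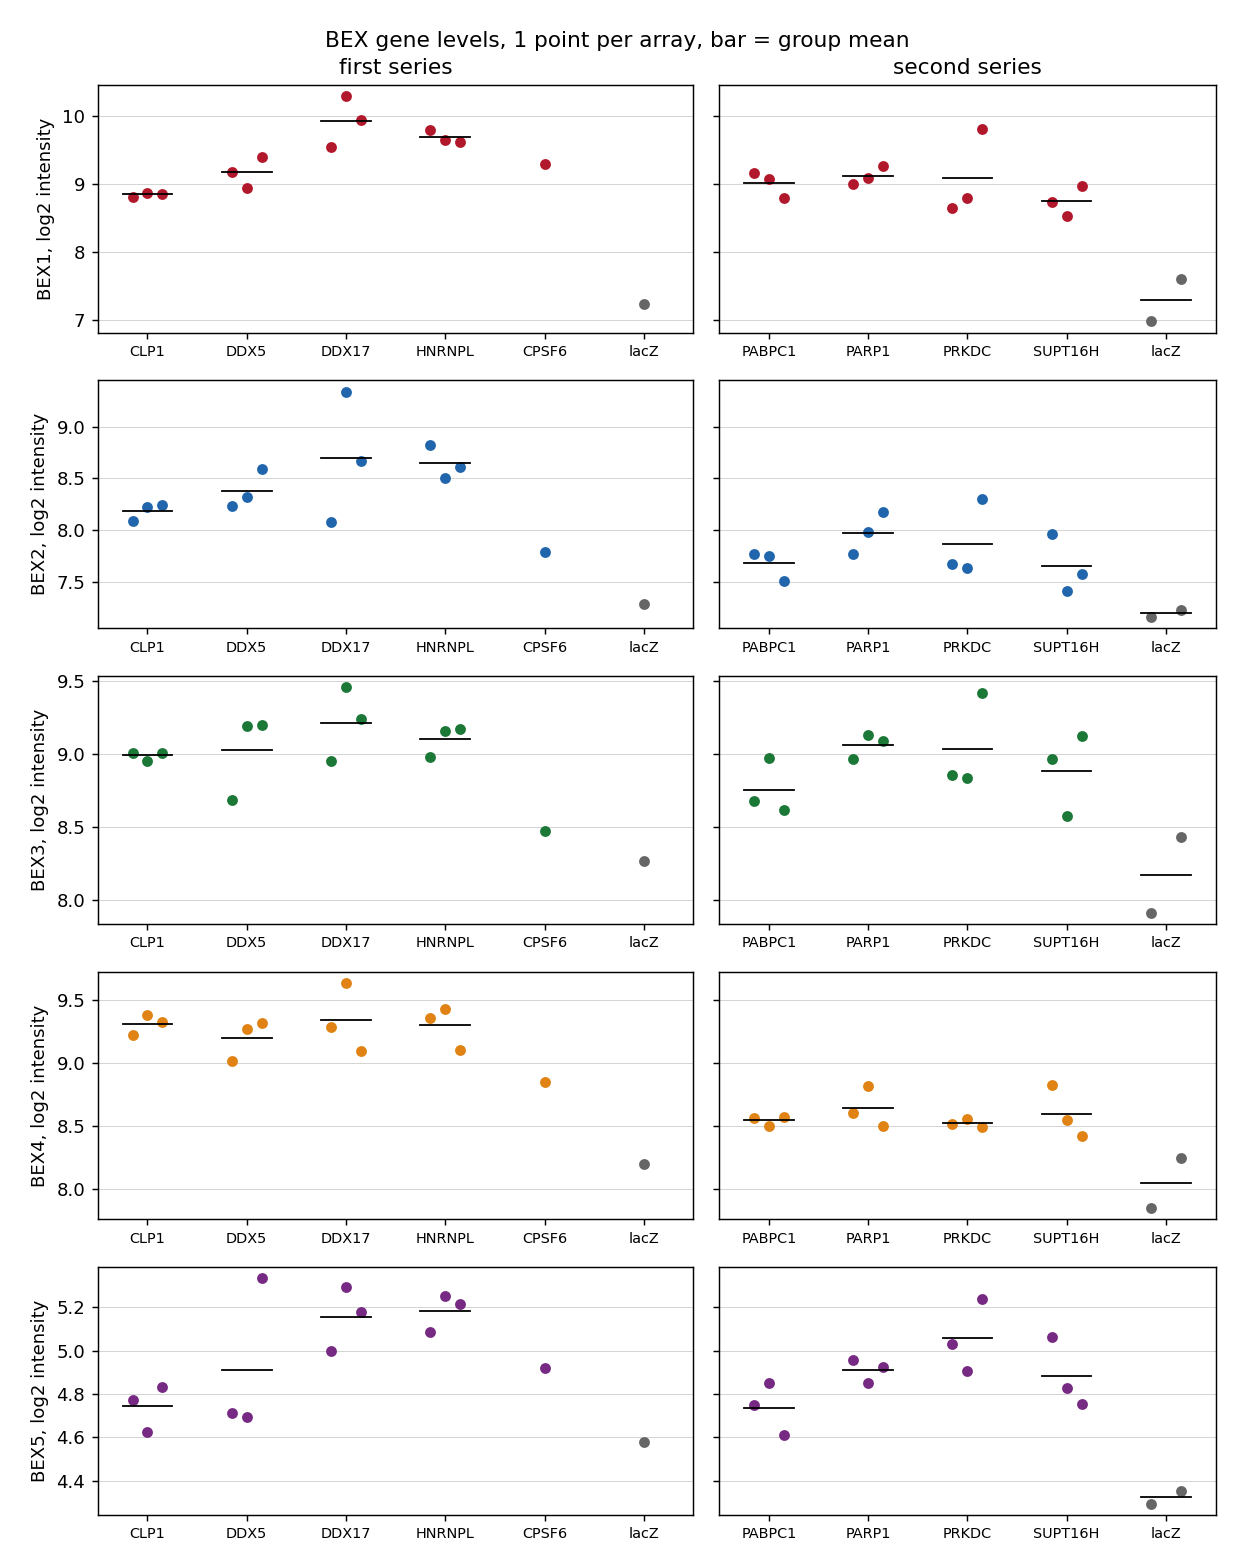
Log2 intensity of each BEX gene (rows) in every array of the first series (left) and of the second (right), 1 point per array, with bars at group means; the vertical axes do not start at 0. For every gene the 12 KD arrays of CLP1, DDX5, DDX17 and HNRNPL, and the 12 of PABPC1, PARP1, PRKDC and SUPT16H, lie above the lacZ points of their series.

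BEX2, which in human cells has been found in a DNA-binding complex with LMO2, read 8.09, 8.22 and 8.25 in CLP1 KD, 8.23, 8.32 and 8.59 in DDX5 KD, 8.08, 9.34 and 8.67 in DDX17 KD and 8.83, 8.50 and 8.61 in HNRNPL KD, against 7.29 in lacZ. It read 7.77, 7.75 and 7.51 in PABPC1 KD, 7.77, 7.98 and 8.18 in PARP1 KD, 7.67, 7.64 and 8.30 in PRKDC KD and 7.97, 7.42 and 7.58 in SUPT16H KD, against 7.16 and 7.23 in lacZ. All KD arrays were above lacZ, by as little as 0.18 in SUPT16H hairpin 2, and the highest values of each series were those of DDX17 hairpin 2 and PRKDC hairpin 3, the same arrays that were highest for BEX1. Over the 4 knockdowns of the first series BEX2 rose by 1.19 ± 0.29 (2.28-fold, BH-adjusted p of limma = 0.0274). Over those of the second it was higher by 0.60 ± 0.21 (1.51-fold), which did not pass (adjusted p = 0.0513).

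BEX3, also known as NADE, binds the p75 neurotrophin receptor and mediates cell death upon its activation. Its levels were 9.01, 8.96 and 9.01 in CLP1 KD, 8.69, 9.20 and 9.20 in DDX5 KD, 8.95, 9.46 and 9.24 in DDX17 KD and 8.98, 9.16 and 9.17 in HNRNPL KD, against 8.27 in lacZ. In the second series they were 8.68, 8.97 and 8.62 in PABPC1 KD, 8.97, 9.13 and 9.09 in PARP1 KD, 8.86, 8.84 and 9.42 in PRKDC KD and 8.96, 8.57 and 9.12 in SUPT16H KD, against 7.91 and 8.43 in lacZ. The groups did not overlap, although SUPT16H hairpin 2 exceeded the higher lacZ array by only 0.14. BEX3 rose by 0.76 ± 0.18 (1.70-fold, adjusted p = 0.00638) over the second series. The difference of 0.82 ± 0.24 in the first, as large, did not pass (adjusted p = 0.0932).

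BEX4, a tubulin-binding member linked to the regulation of microtubules, read 9.22, 9.38 and 9.32 in CLP1 KD, 9.02, 9.27 and 9.31 in DDX5 KD, 9.28, 9.63 and 9.09 in DDX17 KD and 9.36, 9.43 and 9.10 in HNRNPL KD, against 8.20 in lacZ. It read 8.56, 8.50 and 8.57 in PABPC1 KD, 8.60, 8.82 and 8.50 in PARP1 KD, 8.51, 8.55 and 8.49 in PRKDC KD and 8.82, 8.55 and 8.41 in SUPT16H KD, against 7.84 and 8.24 in lacZ. The knockdowns of a series lay close together, with means of 9.20 to 9.34 (first series) and 8.52 to 8.64 (second series). BEX4 passed in both series, with a rise of 1.09 ± 0.20 in the first (2.13-fold, adjusted p = 0.00328) and of 0.53 ± 0.15 in the second (1.44-fold, adjusted p = 0.0177).

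BEX5, a member without a rodent ortholog whose function is little known, gave a dim signal, at percentiles 13.3 to 27.1 of all genes in an array, a range where arrays are known to compress differences. It read 4.77, 4.63 and 4.83 in CLP1 KD, 4.71, 4.69 and 5.33 in DDX5 KD, 5.0, 5.29 and 5.18 in DDX17 KD and 5.09, 5.25 and 5.21 in HNRNPL KD, against 4.58 in lacZ. It read 4.75, 4.85 and 4.61 in PABPC1 KD, 4.96, 4.85 and 4.93 in PARP1 KD, 5.03, 4.91 and 5.24 in PRKDC KD and 5.07, 4.83 and 4.76 in SUPT16H KD, against 4.30 and 4.35 in lacZ. CLP1 hairpin 2 exceeded lacZ by 0.05 only. BEX5 rose by 0.57 ± 0.13 over the second series (1.49-fold, adjusted p = 0.00441), whereas the 0.42 ± 0.17 of the first did not pass (adjusted p = 0.29). These sizes depended on the scale at low signal: with a pseudocount of 16 added to the intensities they were 0.35 ± 0.08 (0.00824) in the second series and 0.27 ± 0.11 (0.29) in the first.

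Read against all genes, the 12 KD arrays of a series lay wholly above lacZ for 5 of 5 BEX genes in both series, BEX1 by choice, and for 9.31% of genes in the first series and 12.7% in the second. By the test, 2 of the 4 paralogs were higher over the first series and 3 of 4 over the second, where 0.635% and 7.8% of all genes passed as higher and 1.15% and 9.78% as lower. No paralog was lower. The median difference of all genes was 0.003 in the first series and 0.07 in the second. These calls depended on the controls and on single arrays. With the first series fitted alone, none of the paralogs passed there, BEX2 having an adjusted p of 0.158 and BEX4 of 0.056. BEX3 passed over the first series without DDX5 hairpin 1 (0.86, 0.0372). Without lacZ replicate 2, BEX3 (0.51 ± 0.24, adjusted p = 0.301), BEX4 (0.33 ± 0.20, 0.384) and BEX5 (0.55 ± 0.18, 0.158) were no longer called in the second, where BEX2 passed without PRKDC hairpin 2 (0.63, 0.0459) or SUPT16H hairpin 2 (0.63, 0.0491).

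Single knockdowns were then set against lacZ, with n = 3 hairpins each. The 32 differences of BEX2 to BEX5 were all positive, from 0.16 to 1.41 on the log2 scale. Of these 16 passed, where 0.174% (DDX5 KD) to 19.6% (PRKDC KD) of all genes were called higher. An unadjusted p under 0.05 was found for 28, a count not set against the share of all genes. BEX4 was the most often called, in 7 of 8 knockdowns, followed by BEX2, BEX3 and BEX5 in 3 each. The knockdowns of a series share their lacZ control, so that these calls are not independent. The share of all genes called in as many knockdowns was not determined.

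Upon CLP1 KD, whose target is a kinase of RNA ends that takes part in pre-mRNA cleavage, BEX4 alone of the 4 paralogs passed, with 1.11 ± 0.22 (adjusted p = 0.0113), where 0.337% of all genes were called higher. BEX2 differed by 0.90 ± 0.32 (0.269), BEX3 by 0.72 ± 0.27 (0.307) and BEX5 by 0.16 ± 0.19 (0.914). The same held upon KD of the DEAD-box helicase DDX5, where BEX4 rose by 1.0 ± 0.22 (adjusted p = 0.0265; background 0.174%).

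DDX17, the helicase paralogous to DDX5, and the splicing regulator HNRNPL gave the highest BEX1 levels of the first series. Upon DDX17 KD, BEX2 rose by 1.41 ± 0.32 (adjusted p = 0.014) and BEX4 by 1.14 ± 0.22 (0.00454), with 1.22% of all genes called higher. BEX2 was no longer called without DDX17 hairpin 2, at 1.08 (adjusted p = 0.0551, range over its alternatives 0.000391 to 0.0923). BEX3, at 0.95 ± 0.27 (0.0565), passed without DDX17 hairpin 1 (1.08, 0.035). Upon HNRNPL KD, BEX2 rose by 1.36 ± 0.32 (0.0272) and BEX4 by 1.10 ± 0.22 (0.00859), with 0.7% of genes called higher. BEX2 was no longer called without HNRNPL hairpin 1, at 1.27 (0.0717, range 0.000802 to 0.135).

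In the second series, none of the 4 paralogs passed upon KD of PABPC1, the cytoplasmic poly(A)-binding protein, where 1.73% of genes were called higher. Their differences were 0.41 to 0.58 with adjusted p of 0.0905 to 0.233. An unadjusted p under 0.05 was found for 3 of the 4, again not set against the share of all genes. Upon KD of PARP1, which makes poly(ADP-ribose), BEX3 rose by 0.89 ± 0.21 (adjusted p = 0.0137), BEX4 by 0.59 ± 0.18 (0.0475) and BEX5 by 0.59 ± 0.15 (0.0227), against 2.46% of genes. Upon KD of SUPT16H, part of the FACT complex that moves histones during transcription, BEX3, BEX4 and BEX5 also rose, with 0.72 ± 0.21 (0.0367) for BEX3, 0.55 ± 0.18 (0.0495) for BEX4 and 0.56 ± 0.15 (0.0247) for BEX5, against 3.77% of genes. Each of these 6 calls was lost when 1 hairpin of its target was left out: in PARP1 KD BEX3 without hairpin 2 (adjusted p = 0.0502), BEX4 without any of the 3 (0.0635 to 0.172) and BEX5 without hairpin 1 or 3 (0.0753 and 0.0625), and in SUPT16H KD BEX3 without hairpin 1 or 3 (0.0802 and 0.121), BEX4 without hairpin 1 or 2 (0.139 and 0.10) and BEX5 without hairpin 1 or 2 (0.0787 and 0.0557).

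All 4 paralogs passed upon KD of PRKDC, which encodes the catalytic chain of DNA-PK, a kinase of double-strand break repair. BEX5 rose by 0.74 ± 0.15 (adjusted p = 0.00227), BEX3 by 0.87 ± 0.21 (0.00621), BEX2 by 0.67 ± 0.25 (0.0419) and BEX4 by 0.47 ± 0.18 (0.0413). In this knockdown 19.6% of all genes were called higher, the largest share of the 8. BEX3 and BEX5 stayed called without any 1 PRKDC hairpin, whereas BEX2 was not called without hairpin 3 (0.46, adjusted p = 0.172) and BEX4 without any of the 3 (0.46 to 0.49, 0.0621 to 0.0769). Without lacZ replicate 2 the calls of the paralogs in single knockdowns of the second series were all lost. The knockdowns of the first series were not refitted without that array.

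**Figure D2:**
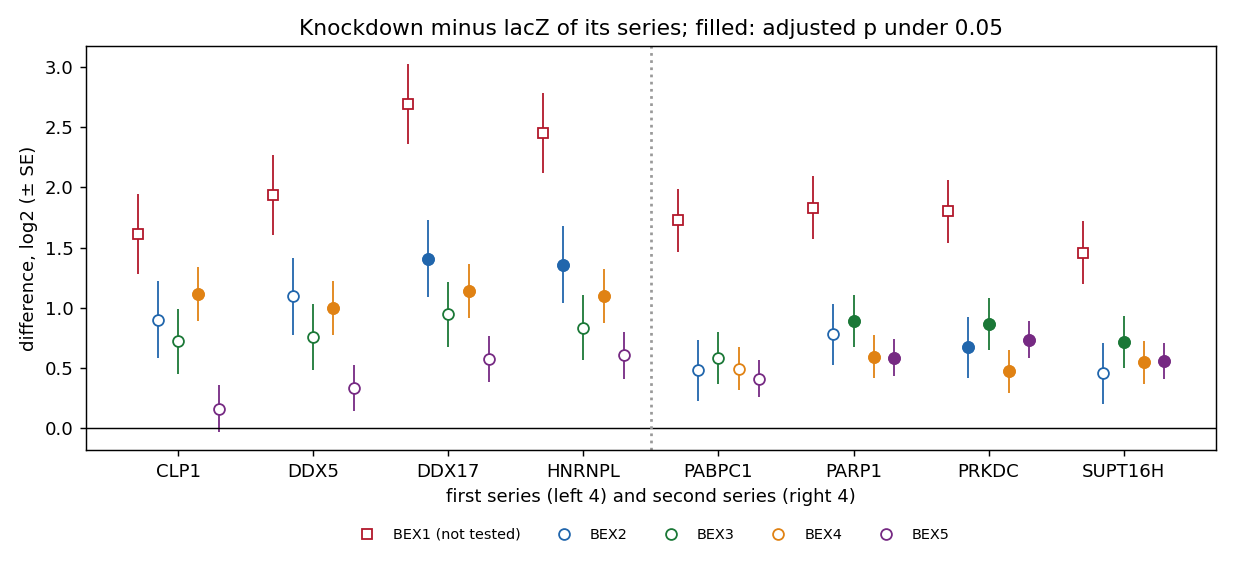
Difference of each BEX gene between a knockdown (n = 3 hairpins) and the lacZ arrays of its series, on the log2 scale with the SE of limma; filled points passed a BH-adjusted p of 0.05 over all genes, and the squares of BEX1 were not tested. BEX1 lies between 1.46 and 2.69 and its paralogs between 0.16 and 1.41, and only BEX4 is filled in 7 of 8 knockdowns. The knockdowns of a series share their lacZ control, so that the filled points are not independent.

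The difference between both series in the mean effect against lacZ was also tested, a comparison added after the data had been seen, with the lacZ sample of both series counted once. BEX4 passed, its effect being 1.09 in the first series and 0.53 in the second, a difference of 0.56 ± 0.16 (adjusted p of limma = 0.0333), where 6.84% of all genes were called in either direction. BEX2 (0.59 ± 0.23, adjusted p = 0.106), BEX3 (0.05 ± 0.19, 0.867) and BEX5 (-0.15 ± 0.14, 0.447) did not pass, and the difference of BEX1, as a description, was 0.47 ± 0.23. The call of BEX4 was lost with quantile normalization over all arrays (0.35 ± 0.19, 0.255), with the lacZ arrays taken as independent samples (adjusted p = 0.711), without CLP1 hairpin 2 (0.051) and without lacZ replicate 2 (0.76 ± 0.28, 0.672). Without lacZ replicate 3, where the shared sample drops out, the difference of BEX4 was 0.36, and those of BEX2 (0.56, 0.000364) and BEX5 (-0.18, 0.0283) passed as well, along with 11305 of all genes. BEX2 also passed without DDX17 hairpin 1 (0.67, 0.0419). Target genes and series cannot be told apart in this comparison.

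To compare the knockdowns without the control, each was set against the mean of the other 3 of its series, and here BEX1 could be tested as well. Of 40 differences of the 5 genes none passed in limma. An unadjusted p under 0.05, whose share over all genes was not determined, was found for 5. These 5 were BEX1 in CLP1 KD (-0.75 ± 0.19, adjusted p = 0.066) and in DDX17 KD (0.69 ± 0.19, 0.0846), BEX2 in CLP1 KD (-0.39 ± 0.18, 0.284), and BEX5 in CLP1 KD (-0.34 ± 0.11, 0.138) and HNRNPL KD (0.25 ± 0.11, 0.54). BEX1 in CLP1 KD passed in 3 alternatives, with array medians centred (-0.81, adjusted p = 0.0479), without DDX5 hairpin 1 (-0.75, 0.0206) and without DDX17 hairpin 1 (-0.81, 0.0411), of 22 alternatives with adjusted p of 0.0206 to 0.373. BEX1 in DDX17 KD passed without DDX5 hairpin 1 (0.69, 0.0498) or hairpin 3 (0.73, 0.0404), of adjusted p between 0.0404 and 0.636, and BEX5 in CLP1 KD without DDX5 hairpin 1 (-0.37, 0.0344). The range of BEX4 was the narrowest, from -0.11 to 0.09, against -0.75 to 0.69 for BEX1. Among all genes, 0.722% were called in either direction in CLP1 KD, 0.874% in DDX17, 0.038% in DDX5, 0.0977% in HNRNPL, 0.0869% in both PABPC1 and PRKDC, 0.554% in PARP1 and 0.0109% in SUPT16H.

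**Figure D3:**
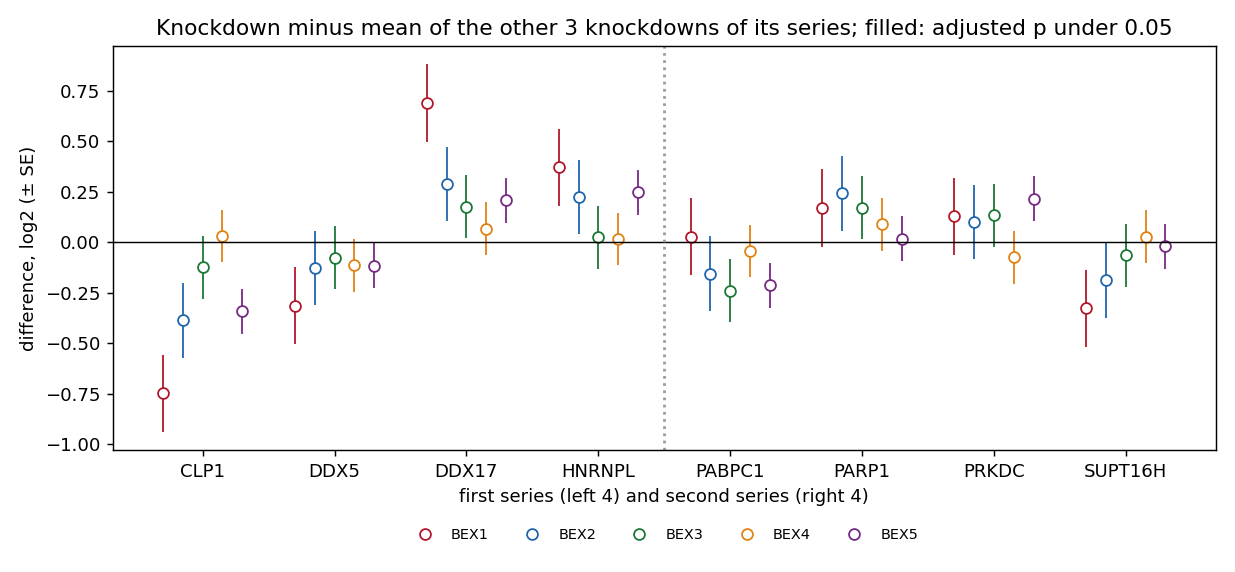
Difference of each BEX gene between a knockdown (n = 3 hairpins) and the mean of the other 3 knockdowns of its series, on the log2 scale with the SE of limma, lacZ not used; all points are open, as none of the 40 passed. The largest are those of BEX1, -0.75 in CLP1 KD and 0.69 in DDX17 KD.

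How closely the paralogs tracked BEX1 from array to array was described over the 25 KD arrays, CPSF6 included, each series centred on its own mean. Pearson's r with BEX1 was 0.77 for BEX2, 0.70 for BEX5, 0.57 for BEX3 and 0.14 for BEX4, against a median of 0.04 over the other 18416 genes. BEX2 held place 10 in the order of all genes by r, BEX5 place 33, BEX3 place 222 and BEX4 place 6246. Within the first series (13 arrays) r was 0.76 for BEX2, 0.82 for BEX5, 0.47 for BEX3 and 0.28 for BEX4, and within the second (12 arrays) it was 0.80, 0.42, 0.75 and -0.20 for the same genes in that order. Leaving out any 1 array kept r at 0.70 to 0.82 for BEX2, while for BEX4 it lay between -0.11 and 0.21. Among the paralogs, BEX2 and BEX3 were the most alike (r = 0.78), and BEX4 was closer to BEX2 (0.52) and BEX3 (0.45) than to BEX1. The r of BEX4 with BEX2 was 0.64 within the first series and 0.21 within the second. With BEX3 it was 0.71 and -0.02. Leaving out 1 array lowered the values over both series to as little as 0.34 for BEX2 and 0.26 for BEX3. Arrays of one target and of one normalization share these values, and genes on the same array share its quality, so that the coefficients are descriptions.

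**Figure D4:**
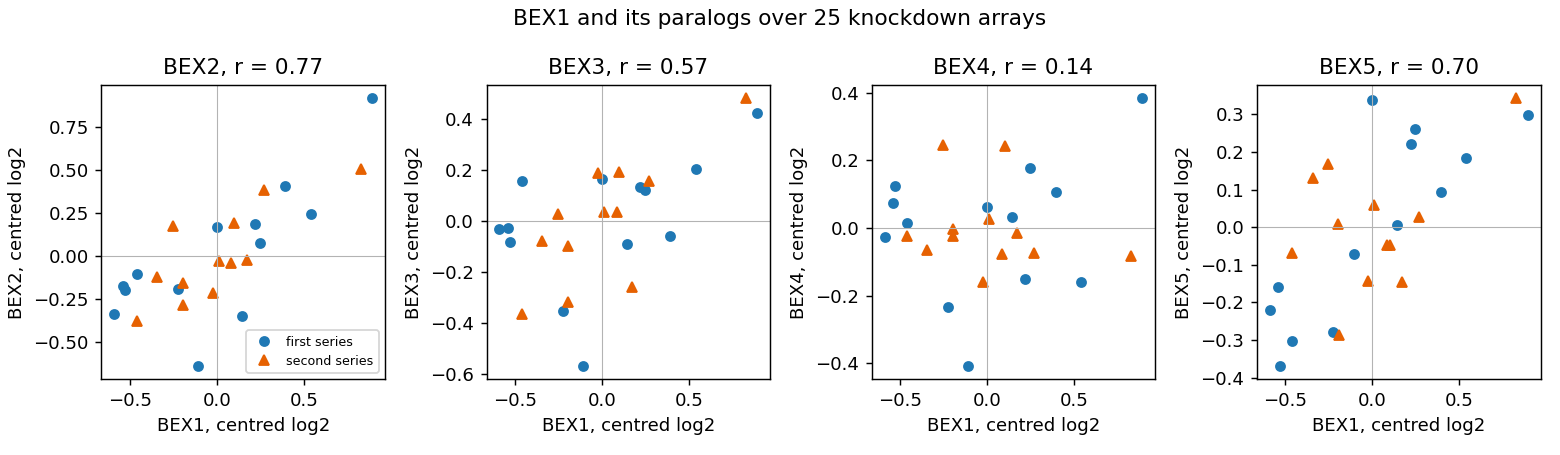
Log2 level of each paralog (vertical) against BEX1 (horizontal) in 25 KD arrays, each series centred on its mean over KD arrays; circles are the first series and triangles the second. BEX2, BEX5 and BEX3 climb with BEX1 (r = 0.77, 0.70 and 0.57), and BEX4 does not line up with it (r = 0.14).

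By the same measure, the 5 genes with the pattern most like that of BEX1 were MANF, a secreted protein of the endoplasmic reticulum (r = 0.83), B3GALNT1, a galactosaminyltransferase (0.83), the phosphatase DUSP26 (0.81), the homeobox gene HDX (0.79) and MIX23 (0.79). The 3 most opposed were SLC37A4, the glucose-6-phosphate transporter of the endoplasmic reticulum (-0.81), the ubiquitin ligase MARCHF9 (-0.80) and the laminin chain LAMB1 (-0.79). They were not uniformly changed against lacZ. In the first series MIX23 rose by 1.09 ± 0.26 (adjusted p = 0.0223) and SLC37A4 fell by 0.94 ± 0.22 (0.022). In the second, B3GALNT1 rose by 0.92 ± 0.12 (1.25e-05), DUSP26 by 0.46 ± 0.13 (0.0164) and HDX by 0.35 ± 0.07 (0.00189).

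The genes around the family were examined next. Of the TCEAL genes, relatives of a transcription elongation factor, 8 of 9 were measured. None passed in the first series, where 0.635% of all genes were called higher, and 3 of 8 rose in the second, where 7.8% were. The median difference was 0.52 in the first series and 0.32 in the second, beside 0.003 and 0.07 over all genes. All 8 were above 0 in both, where 50.5% and 57.3% of all genes were. The 3 that passed in the second series were TCEAL4 (0.55 ± 0.17, adjusted p = 0.0296), TCEAL7 (0.45 ± 0.15, 0.0384) and TCEAL2 (0.44 ± 0.15, 0.041). Of the ARMCX and GPRASP genes, 7 of 9 were measured, of which 1 rose in the first series and 3 in the second, against the same shares of all genes, with medians of 0.40 and 0.27. ARMCX3, a mitochondrial outer membrane protein, rose in both, by 1.06 ± 0.25 (0.021) and 0.62 ± 0.18 (0.0228). GPRASP1, which sorts receptors to lysosomes, rose by 0.66 ± 0.13 (0.00182) and ARMCX2 by 0.44 ± 0.13 (0.0259) in the second only, the difference between series not being tested for them.

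Within 500 kb of a BEX gene, 22 other genes were measured, TCEAL, ARMCX and GPRASP genes among them. Of these 0 passed in the first series, and 6 rose and 1 fell in the second, where 7.8% of all genes were called higher and 9.78% lower, so that the single fall is a smaller share than among all genes. The median difference was 0.19 in the first series and 0.17 in the second, beside 0.003 and 0.07 over all genes. Of the 6 that rose, all but GLRA4 were TCEAL, ARMCX or GPRASP genes already named above. The median of the neighbors outside these families was not determined. GLRA4, related to glycine receptor subunits, rose by 0.40 ± 0.10 (0.00832) and TMEM31 fell by 0.44 ± 0.15 (0.0467). MORF4L2, a chromatin protein close to TCEAL1, differed by -0.37 ± 0.26 in the first series (0.678) and by -0.53 ± 0.19 in the second (0.0566).

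**Figure D5:**
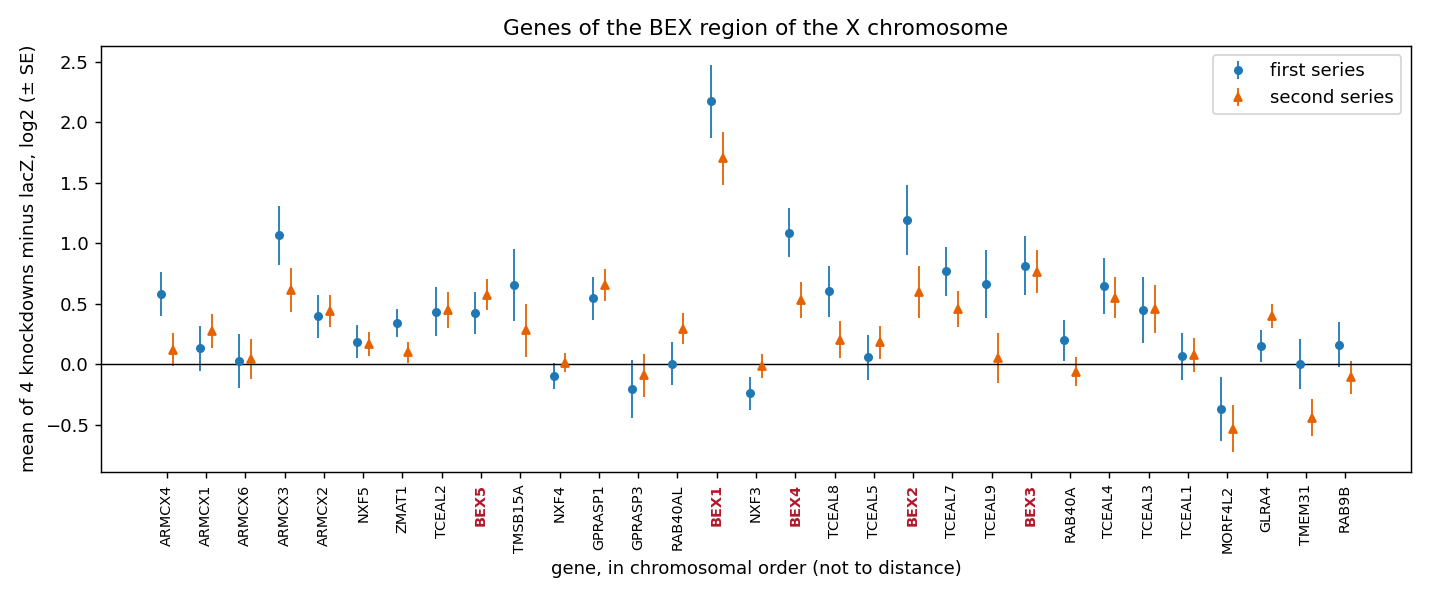
Mean difference of 4 knockdowns against lacZ, log2 with the SE of limma, for measured genes of the BEX region in chromosomal order, with equal spacing; circles are the first series, triangles the second, and BEX genes are in bold. BEX1 is the highest point of both series (2.17 and 1.70), and MORF4L2 is below 0 in both (-0.37 and -0.53).

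Of 10 measured genes of p75 receptor and neurotrophin signaling, the pathway in which BEX1 and BEX3 have been placed, none passed in the first series. In the second, MAGED1, an adaptor that binds the same receptor, rose by 0.72 ± 0.19 (adjusted p = 0.0142) and the ubiquitin ligase TRAF6 fell by 0.91 ± 0.25 (0.0158), which is 1 of 10 in each direction, close to the 7.8% and 9.78% of all genes. The median over the list was 0.04, beside 0.07 over all genes. Of 5 reported partners of BEX proteins, none passed in the first series. In the second LMO2, a hematopoietic transcription factor, rose by 0.46 ± 0.14 (0.0297) and its cofactor LDB1 fell by 0.45 ± 0.15 (0.0411), 1 gene of 5 in each direction, a count too small to set against the shares of all genes. Of the 12 neuron markers, 0 passed in the first series, with 6 of 12 above 0 beside 50.5% of all genes. In the second 1 fell, with 8 of 12 above 0 beside 57.3% of all genes. That 1 was NEFL, which fell by 1.67 ± 0.22 (2.54e-05), beside 9.78% of all genes called lower there, and the medians of the list were 0.008 and 0.08, near those of all genes.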

How the data were processed

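HEK293 cells with hairpins against 9 genes or lacZ were profiled on 28 arrays. The deposited values are probeset intensities on the linear scale, which the authors made from the scans by RMA in aroma.affymetrix (version not given in the sources used here), namely background subtraction, quantile normalization and summarization, for each series apart. Of 33252 probesets, 19460 had exactly 1 gene symbol, 1754 several and 12038 none. The probeset with the highest mean was kept per gene, giving 18417 genes, of which 18389 matched RefSeq by Entrez ID. Intensities were taken to log2 without a pseudocount or filter, and no detection call was used.

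Differences were estimated in limma 3.58.1 (R 4.3.3) where the 28 arrays entered a single fit holding each target and the series as terms, and variances were moderated along intensity (residual degrees of freedom 17, prior 8). The Benjamini-Hochberg (BH) adjustment ran over all 18417 genes, with a threshold of 0.05. The difference between series used the same fit, with an SE in which the lacZ sample taken as common to both series entered once. The single CPSF6 array had no replicate. Groups came from the sample labels. The method was tried on simulated arrays, which for the comparisons with lacZ were drawn independently and so held no shared lacZ sample. Of 100 genes shifted by 1 on the log2 scale, 65% (CLP1 KD) and 73% (PARP1 KD) were called against lacZ. Of 100 shifted by 2, 100% were called in both. Named genes are the 5 members, members of the lists that passed (up to 4 per list and comparison), the 5 genes most and 3 least correlated with BEX1, and neighbors within 500 kb by count. GLRA4, TMEM31 and MORF4L2 were named after their values were seen. The members, lists and tests were chosen with earlier results of these data known. Promoters were from RefSeq (GRCh38.p14), aligned with Biopython 1.88. Alternatives changed the normalization, series term, pseudocount, filter, probeset rule, variance model, control arrays and hairpins.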

Additional observations from a re-analysis of the deposited data

Results flagged for a closer look

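CPSF6, a subunit of a pre-mRNA cleavage factor, was knocked down in 1 array only and entered no comparison above. Its BEX levels stood above the lacZ array of the first series by 2.06 for BEX1 (9.29 against 7.23), 0.50 for BEX2 (7.79 against 7.29), 0.65 for BEX4 (8.84 against 8.20) and 0.34 for BEX5 (4.92 against 4.58), on the log2 scale, each by more than the 2 lacZ arrays of the second series differed for that gene. The difference of 0.20 for BEX3 (8.47 against 8.27) was smaller than the 0.52 between those lacZ arrays. For BEX2 and BEX5 those lacZ arrays differed by only 0.07 and 0.06, beside an SD over genes of 0.23. How many of all genes differed more in the CPSF6 array than between those lacZ arrays was not determined. With 1 array there was no test and no replicate check.

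For BEX4 the effect of the knockdowns differed between both series by a test of the difference itself, at 0.56 ± 0.16 (1.09 in the first series, 0.53 in the second, adjusted p of limma = 0.0333). The series hold different targets and were normalized apart, and the lacZ sample stands on both sides of the comparison.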

How the results depend on the processing

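BEX2 to BEX5 stayed above lacZ in each of the 8 knockdowns and in both means of 4 under every alternative run (lowest value 0.10, BEX5 in CLP1 KD with a pseudocount of 16), but the side of the threshold changed often, and none of the 16 calls in single knockdowns held under all of them. Over the first series, with each series fitted alone, BEX2 (1.19, adjusted p = 0.158) and BEX4 (1.09, 0.056) were not called. Neither was BEX2 with quantile normalization over all arrays (1.14, 0.0604). Without a series term BEX3 (0.82, 0.0019) and BEX5 (0.61, 0.00198) were called, and so was BEX3 without DDX5 hairpin 1 (0.86, 0.0372). Over the second series BEX2 was called with the series fitted alone (0.60, 0.0144), with quantile normalization (0.77, 0.0247) and with genes below the median level left out (0.60, 0.0462). Leaving out 1 array at a time gave 1.11 to 1.27 for BEX2, 0.79 to 0.86 for BEX3, 1.05 to 1.12 for BEX4 and 0.37 to 0.45 for BEX5 in the first series, and 0.54 to 0.63, 0.51 to 1.02, 0.33 to 0.73 and 0.55 to 0.60 for the same genes in the second. It gave 6 to 17 calls of the paralogs in single knockdowns against lacZ, the 6 without lacZ replicate 2, and 11 without replicate 3, and 0 to 3 calls of the 5 genes against the other knockdowns, the 3 without DDX5 hairpin 1. Median centring gave 1 such call. Over all alternatives the adjusted p of BEX2, BEX3, BEX4 and BEX5 reached from 0.000276, 0.0019, 1.06e-05 and 0.00198 up to 0.158, 0.213, 0.056 and 0.567 in the first series, and from 0.0144, 0.00362, 0.00667 and 0.00077 up to 0.333, 0.301, 0.384 and 0.158 in the second. The first minus second difference of BEX4 was not called with quantile normalization (0.35, 0.255) or with the lacZ arrays as independent samples (0.56, 0.711). Leaving out 1 array at a time gave 0.51 to 0.67 for BEX2, -0.21 to 0.31 for BEX3, 0.36 to 0.76 for BEX4 (called in 24 of 26) and -0.21 to -0.12 for BEX5. These alternatives were chosen after seeing the data. The first-series lacZ array could not be left out. The cause of these changes was not tested. Over all genes, calls against lacZ numbered 328 (117 higher) in the first series and 3238 (1437 higher) in the second, but 5016 (4713 higher) and 3243 (651 higher) without a series term, 98 (18 higher) and 6306 (3179 higher) with the series fitted alone, 154 in the first and 2089 in the second with dim genes left out, and 636 in the first without DDX5 hairpin 3. Leaving out lacZ replicate 2 left 213 in the second, and leaving out replicate 3 left 1015.

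Spearman's rho of BEX1 and BEX4 was -0.0115, against a Pearson's r of 0.14, and without centring of the series r was 0.47. The hairpin numbers of different targets name different sequences and did not pair the arrays (correlation of deviations -0.575 to 0.833 over 36 pairs, with 9 of 24 arrays closest to their own number). With the number as a replicate block, 0 of the 40 differences against the other knockdowns passed, and BEX1 in CLP1 KD was -0.75 (adjusted p = 0.0607). What limits these results is 1 control sample in the first series, 2 in the second, of which 1 was taken to be that of the first, and the dim signal of BEX5.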
